A study of Homo sapiens with 10 samples.

Results

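A set of interferon-induced antiviral effector genes was followed in SKBR3, a cell line from a breast carcinoma with HER2 amplification and mutant p53. The set consists of IFI27, IFI6, BST2, XAF1, MX1, MX2, IFI44, IFI44L, IFI35 and SAMD9, 10 of the 19775 genes with a probe set of their own on the arrays. They were picked from a list of named genes for their difference between cells given siRNA against p53 and control cells, and for a low level at 8 h against 50 h of calcitriol. All of their probe sets that carry a single gene symbol were used, which gave 14 of 41091. The study hybridised 10 one-colour Affymetrix arrays. Of these, 5 came from cells transfected with siRNA against p53 (p53i) and 5 from cells transfected with a negative-control siRNA against bacterial LacZ (LacZi). In each set 2 arrays were untreated and 1 each came from cells given 100 nM of D3 (calcitriol, the active hormone made from vitamin D3) for 8, 20 or 50 h. All cells grew in medium with charcoal-stripped serum. The knockdown was transient, in 1 cell line, and the target of the siRNA was not analysed here, so no array carries a direct check of it.

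Type I and type III interferons bind receptors at the cell surface, and their Janus kinases activate a transcription factor complex that contains IRF9. That complex enters the nucleus and binds the interferon-stimulated response element (ISRE) in the promoters of a large set of genes, most of which are near silent in unstimulated epithelial cells. Most of the genes described here encode proteins at the end of this pathway that hinder the entry, replication or release of viruses.

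The ISRE core was looked for in the RefSeq promoter windows of these genes (GRCh38.p14, 250 bases before to 50 bases after each transcript start), since most of them differed between the siRNAs in the same direction. The letters searched were GAAA, any 2 bases and GAAA again, on both strands. RefSeq windows were matched for 9 of the 10 genes, with 14 windows in all; the gene named only is MX2. The core was found in 7 of the 9 genes, against 4.38% of all 27305 genes with a window and 24 (68.6%) of 35 other interferon-stimulated genes. Of receptor and signalling genes 0 of 11 held it, and of interferon genes 5 of 18. Among the windows of the listed genes it was in 10 of 14, against 3.57% of all 35116 windows. The stretches that hold it in 6 of the 7 are given 5′ to 3′ on the gene's own strand, with the matches in capitals and 10 bases on each side.
IFI27, chr14:94110618-94110660, plus strand: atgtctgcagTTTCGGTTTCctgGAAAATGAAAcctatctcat
IFI6, chr1:27672266-27672358, minus strand: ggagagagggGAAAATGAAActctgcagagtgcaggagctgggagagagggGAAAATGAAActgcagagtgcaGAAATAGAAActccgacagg
BST2, chr19:17405735-17405770, minus strand: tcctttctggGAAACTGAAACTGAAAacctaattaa
MX1, first start, chr21:41420559-41420588, plus strand: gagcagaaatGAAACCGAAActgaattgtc
SAMD9, chr7:93118096-93118125, minus strand: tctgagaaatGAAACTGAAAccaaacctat
IFI44, chr1:78649761-78649790, plus strand: gcacactgagTTTCAGTTTCctttctctga

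IFI6 held 3 matches in a window that repeats the same stretch. BST2 held 2 that overlap in 1 run of letters. IFI27 held 1 match on each strand, and both of its windows cover the same pair. IFI44L held 2 matches, and MX1 a further match in the window of another start. These letters were not in the windows of XAF1 and IFI35. The core of the gamma-activated sequence, a second interferon-responsive element, was searched as TTCNNNGAA, a motif that reads the same on both strands. It was found in 4 of the 9 genes (IFI27, BST2, MX1 and IFI35), against 9.38% of all genes. Other lists of the pathway held it in 25.7% (35 interferon-stimulated genes), 36.4% (11 receptor and signalling genes) and 38.9% (18 interferon genes). In IFI27, BST2 and MX1 it overlapped an ISRE match. A match of letters is a description and does not show that a factor binds there.

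**Figure D1:**
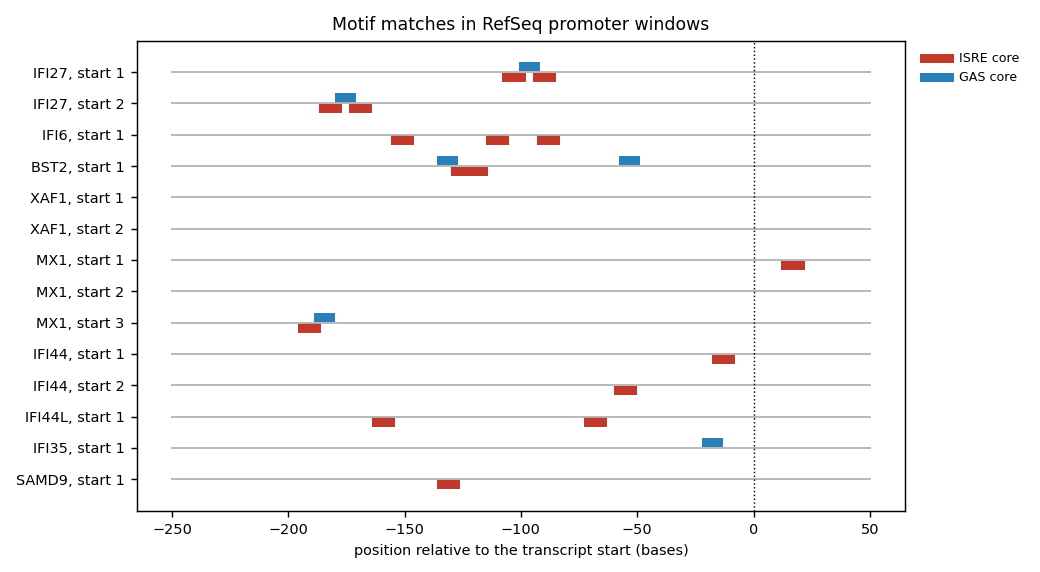
Matches of the ISRE core (red) and the gamma-activated sequence core (blue) in each RefSeq promoter window of 9 genes, by position in bases from the transcript start (dotted line). Windows of 1 gene are numbered in chromosome order; 10 of 14 windows hold an ISRE core and both windows of XAF1 hold neither motif.

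Median signals were 35.7 to 44.3 per array over all probe sets. Untreated duplicates differed at least 2-fold on the log2(signal + 16) scale for 6.96% of genes in p53i cells and 6.88% in LacZi cells. Among the listed genes they did so for 2 in p53i cells and 2 in LacZi cells. The median SD of the untreated duplicates was 0.449 for the listed genes and 0.239 over all genes. Between these untreated duplicates the listed genes thus varied more than a typical gene. The comparison was not matched on signal, and the offset narrows the spread of weak signals. The epithelial markers ERBB2, GRB7, EPCAM, KRT8, KRT18 and KRT19 had high signals in both sets. KRT8 averaged 13750 ± 1112 in p53i cells and 10290 ± 579.7 in LacZi cells (SD, n = 5 each). CDH1, which encodes E-cadherin, had signals of at most 23.9. Of 11 measured markers of immune cells, 8 had a mean signal under the median of a typical array. Their summed signal was 163 to 311 on p53i arrays and 275 to 362 on LacZi arrays, and PTPRC, which marks all leukocytes, averaged 7.21 ± 5.56 and 13.2 ± 4.96 (SD, n = 5 each). For ACTB, the signal of the 3' control probe set over that of the 5' one, which reports on how complete the labelled RNA is, was 4.39 to 8.72 on p53i arrays and 3.79 to 5.05 on LacZi arrays (exact permutation test of the means, two-sided, p = 0.0714). The highest ratios were those of p53i untreated replicate 2 and p53i 20 h.

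Between the siRNAs, 6 of the 10 genes (IFI27, IFI6, BST2, XAF1, MX1 and SAMD9) had all 5 p53i arrays above all 5 LacZi arrays, as 2.00% of all genes did. The gene list was chosen for this contrast, so its values describe the genes and no test is drawn from them. Where a gene has several probe sets, the one with the highest mean log2 signal stands for it in counts. Differences are of log2(signal + 16), p53i minus LacZi, with time with D3 in the model, and understate changes of genes near background. Signals of different probe sets are not comparable with each other, and in bulk RNA fewer expressing cells and less RNA per cell cannot be told apart.

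BST2, also called tetherin, is a membrane-anchored protein that holds budding enveloped viruses at the cell surface. Its signal in p53i cells was 259 and 344 without D3, 144 at 8 h, 239 at 20 h and 454 at 50 h. LacZi cells had 101 and 76.1 without D3, 4.67 at 8 h, 78.7 at 20 h and 65.8 at 50 h. Every p53i array lay above every LacZi array, and the LacZi 8 h array stood far below the other LacZi arrays. The difference was 2.02 ± 0.23 (SE), with matched differences of 1.60 without D3 and 2.95, 1.43 and 2.52 at the successive D3 times.

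MX1 and MX2 are neighbouring genes for dynamin-like GTPases, of which MX1 blocks influenza and other RNA viruses in the cytoplasm and MX2 acts on HIV at the nuclear pore. For MX1 the p53i arrays read 84.6 and 207 without D3, 77.7 at 8 h, 194 at 20 h and 267 at 50 h. LacZi arrays read 17.7 and 30.8 without D3, 6.60 at 8 h, 48.1 at 20 h and 45.1 at 50 h. All p53i values were above all LacZi values, although the untreated duplicates of either siRNA were themselves well apart. The MX1 difference was 1.96 ± 0.25, and its 4 matched differences lay between 1.71 and 2.21. LacZi signals of MX1 were weak, down to 6.60 at 8 h, so the size and spread of these differences depend on the offset. With no offset the MX1 difference over all conditions was 2.63, and with an offset of 64 it was 1.24. For MX2 the p53i arrays read 41.4 and 39.4 without D3, 79.5 at 8 h, 73.2 at 20 h and 68.5 at 50 h. On LacZi arrays it read 10.4 and 44.8 without D3, 8.34 at 8 h, 29.5 at 20 h and 41.1 at 50 h. For MX2 the groups overlapped, since its untreated p53i arrays lay within the LacZi range, and its difference was 0.90 ± 0.31. Over the 8 groups of MX2, neighbours in the order of levels lay within 1 SD of the untreated duplicates, except LacZi untreated above LacZi 8 h.

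IFI27 and IFI6 encode small hydrophobic proteins of 1 family, of which IFI27 is found in mitochondria and IFI6 restricts flaviviruses at the endoplasmic reticulum. IFI27 had signals of 665 and 1451 in p53i cells without D3, 270 at 8 h, 1060 at 20 h and 1704 at 50 h. Its LacZi values were 55.8 and 50.1 without D3, 8.69 at 8 h, 6.66 at 20 h and 52.1 at 50 h. Its lowest p53i array stood well above the highest LacZi array, and the LacZi arrays split into 3 a little above the array median and 2 far below it. IFI27 showed the largest difference of the 10 genes, 4.30 ± 0.28, and a matched difference of 5.57 at 20 h, where the LacZi value was lowest. IFI6 had signals of 325 and 509 in p53i cells without D3, 295 at 8 h, 372 at 20 h and 520 at 50 h. LacZi cells gave 82.5 and 123 without D3, 94.4 at 8 h, 91.3 at 20 h and 142 at 50 h. IFI6 showed no overlap either, and its difference of 1.77 ± 0.15 had the smallest SE of the 10 genes. Its LacZi signals all stood above the medians of their arrays, up to percentile 71.2.

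XAF1 encodes a partner and antagonist of the caspase inhibitor XIAP. Its lead probe set 228617_at read 105 and 163 in p53i cells without D3, 35.4 at 8 h, 93.4 at 20 h and 259 at 50 h. On LacZi arrays it read 5.02 and 1.92 without D3, 2.49 at 8 h, 14.1 at 20 h and 7.37 at 50 h. There was no overlap, and all LacZi signals lay in the lowest 25.8% of their arrays, and the difference was 2.55 ± 0.32. With signals this low its size depends on the offset added before the logarithm, and raising that to 64 gave 1.37. The other probe sets of XAF1 did not show it. Probe set 206133_at ranged from 8.33 to 39.2 in p53i cells and from 6.11 to 29.5 in LacZi cells, with a difference of 0.04 ± 0.25. Probe set 242234_at ranged from 17.2 to 45.4 and from 28.9 to 43.6, with a difference of -0.03 ± 0.24. The mean log2 signal of 242234_at was 5.66 and that of the lead probe set 5.72, so the choice of the lead was a close one. With the 3 probe sets averaged, the difference of XAF1 was 0.86 and did not pass (limma adjusted p = 0.0618).

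SAMD9 encodes a cytoplasmic restriction factor of poxviruses, and IFI35 a leucine zipper protein that binds the interferon-induced protein NMI. SAMD9 had lead signals (228531_at) of 84.8 and 110 in p53i cells without D3, 53.9 at 8 h, 91.0 at 20 h and 126 at 50 h. Its LacZi signals were 32.0 and 4.88 without D3, 21.2 at 8 h, 12.5 at 20 h and 36.1 at 50 h. Groups did not overlap on this probe set, whose LacZi duplicates differed widely, and the difference was 1.58 ± 0.29. Its second probe set, 219691_at, gave 0.49 ± 0.27, with ranges of 12.2 to 44.6 in p53i cells and 2.56 to 36.1 in LacZi cells. IFI35 had 95.3 and 93.0 in p53i cells without D3, 38.5 at 8 h, 62.1 at 20 h and 139 at 50 h. In LacZi cells it had 40.9 and 30.6 without D3, 8.18 at 8 h, 35.7 at 20 h and 13.9 at 50 h. Its p53i 8 h value alone fell inside the LacZi range, and the difference of IFI35 was 1.27 ± 0.27.

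IFI44 and IFI44L are adjacent, related genes of less settled function that are used as markers of interferon exposure. Mean signals of both were below the medians of the arrays in either siRNA. The lead probe set of IFI44, 214453_s_at, ranged from 14.2 to 36.3 in p53i cells and from 2.71 to 33.4 in LacZi cells, and 214059_at from 15.7 to 34.9 and from 1.26 to 20.9. Their differences were 0.42 ± 0.28 and 0.47 ± 0.26, with wide overlap. IFI44L read 23.2 and 31.3 in p53i cells without D3, 1.70 at 8 h, 16 at 20 h and 72.1 at 50 h. LacZi arrays read 7.77 and 13.7 without D3, 17.1 at 8 h, 18.6 at 20 h and 3.90 at 50 h. Its p53i and LacZi arrays overlapped, the matched differences of IFI44L ran from -0.90 at 8 h to 2.15 at 50 h, and its difference was 0.50 ± 0.36.

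In the order of mean log2 levels over the 8 groups, all 4 p53i groups stood above all 4 LacZi groups for IFI27, IFI6, BST2, XAF1, MX1, IFI35 and SAMD9. Among these genes, BST2, XAF1 and IFI35 had every step within p53i cells larger than the SD of the untreated duplicates. Those steps went from 50 h down through untreated and 20 h to 8 h. For IFI27 the p53i 20 h and untreated levels did not differ beyond that SD. For IFI6 the p53i groups did not separate from their neighbours, although the step from p53i 8 h to the highest LacZi group did. For SAMD9 and IFI44 no neighbours in the order lay farther apart than their SD, and for MX1 and IFI35 the lowest p53i group, at 8 h, lay within the SD of LacZi 20 h.

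**Figure D2:**
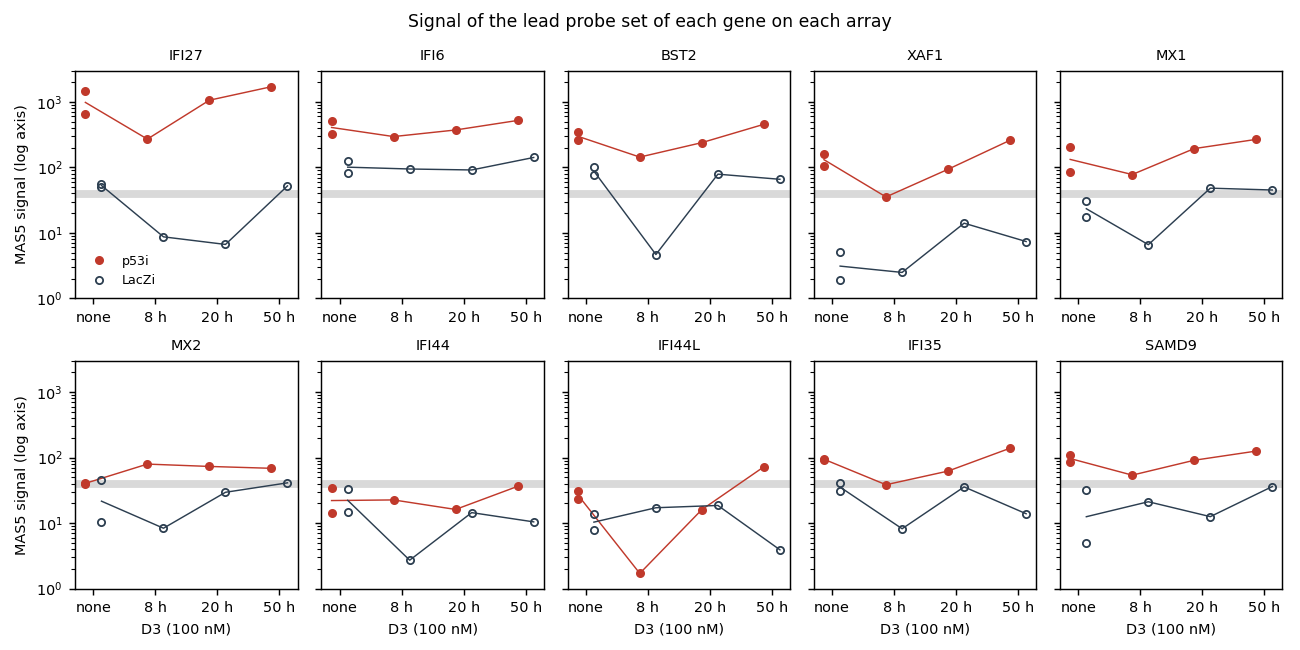
MAS5 signal (log axis) of the lead probe set of each of the 10 genes on all 10 arrays, by time with 100 nM D3; filled red points are p53i arrays, open dark points LacZi arrays, lines join the geometric mean of the untreated duplicates to the single arrays, and the grey band spans the median signals of the arrays, 35.7 to 44.3. The p53i points lie above all LacZi points for IFI27, IFI6, BST2, XAF1, MX1 and SAMD9.

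**Figure D3:**
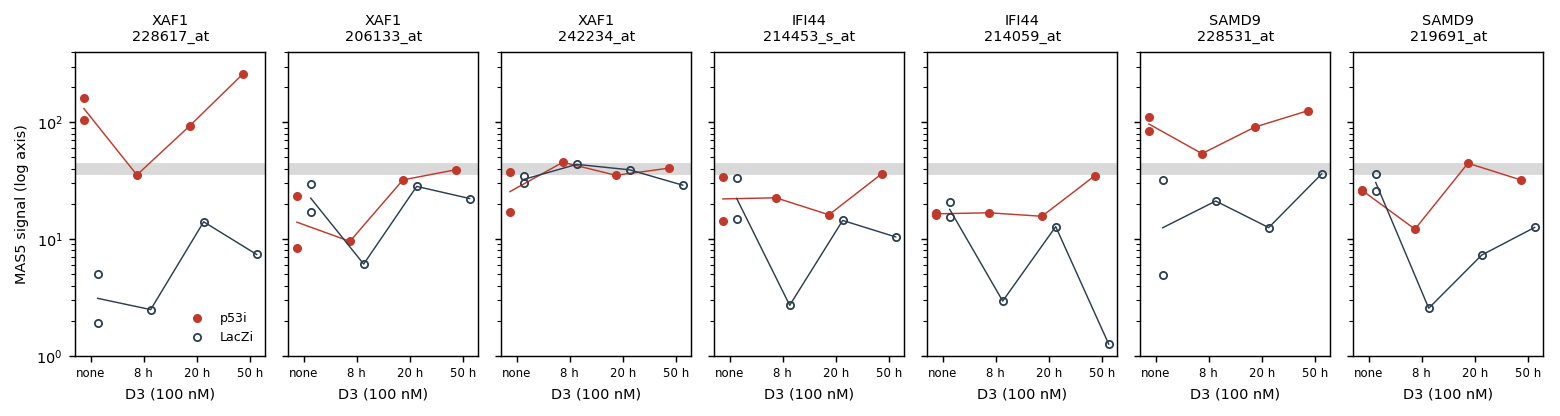
MAS5 signal (log axis) of every probe set of XAF1, IFI44 and SAMD9, drawn as in the plot of lead probe sets. Probe set 228617_at of XAF1 separates the p53i from the LacZi arrays, and the other probe sets of XAF1 overlap.

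Over all conditions, 6 of the 10 genes passed the threshold of 0.05 (limma, Benjamini-Hochberg over all probe sets) as higher in p53i cells, and 0.789% of all genes did. The 6 were IFI27, IFI6, BST2, XAF1, MX1 and SAMD9, and none passed as lower (0.693% of all genes). Nothing is read from these counts, because the genes were picked on this contrast. Their median difference was 1.68, beside -0.01 over all genes. The call of XAF1 rests on its lead probe set, which has the highest mean through the p53i arrays alone: in LacZi cells it averaged 6.17 ± 4.91, under the other probe sets of XAF1. IFI35 was just outside the threshold (limma adjusted p = 0.055) and passed in 6 of 22 alternatives. With 1 array left out in turn, MX1 did not pass without p53i 20 h (limma adjusted p = 0.0556) or without p53i 50 h (0.0552), and SAMD9 passed only without untreated replicate 1 of p53i (0.0432) or of LacZi (0.046). With the ACTB ratio as a covariate, or without the 2 arrays with the highest ratio, IFI27, IFI6 and BST2 passed. Without the intensity trend in the variance model 0 passed by limma, 8 of the 10 had an unadjusted p under 0.05 (12.9% of all genes did), and 0 of all probe sets passed.

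Matched on time with D3, genes at least 2-fold higher in p53i cells numbered 7 in untreated cells (0.946% of all genes), 8 at 8 h (3.57%), 6 at 20 h (3.18%) and 8 at 50 h (4.81%). None of the 10 was at least 2-fold lower (1.56% of all genes without D3, 3.44% at 8 h, 4.88% at 20 h and 4.19% at 50 h). Each value at a D3 time sets 1 array against 1 array and has no replicate. The 5 genes past 2-fold in all 4 comparisons were IFI27, IFI6, BST2, XAF1 and MX1. Without D3 the median over the 10 was 1.72, and the D3 times in order had medians of 1.48, 1.57 and 2.18, with medians over all genes from -0.02 to 0.02. With no offset they were 1.89 without D3 and 3.16, 1.80 and 2.68 at those times, so their order depends on the offset.

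The level at 8 h of D3 was the lowest of the 5 p53i arrays for 8 of the 10 genes, all but MX2 and IFI44 (16.5% of all genes). The level at 50 h was the highest of the 5 p53i arrays for 9, all but MX2 (24.9% of all genes). In LacZi cells the 8 h level was the lowest for 5 (BST2, MX1, MX2, IFI44 and IFI35; 16.8% of all genes) and the 50 h level the highest for 2 (IFI6 and SAMD9; 20.1%). This dip and the later level were also part of how the genes were chosen. In p53i cells the 8 h array stood at least 2-fold below the untreated mean for IFI27, XAF1, IFI44L and IFI35 (1.68% of all genes), with a median of -0.83 over the 10. In LacZi cells it did so for IFI27, BST2, IFI44 and IFI35 (2.20%), with a median of -0.77. Of the 10 genes, IFI27 and IFI35 were past 2-fold in both. None stood at least 2-fold higher at 8 h, as 2.97% of all genes did in p53i cells and 2.05% in LacZi cells. The ACTB ratio of the 8 h arrays was 4.77 in p53i cells and 5.05 in LacZi cells, within the range of the other arrays in p53i cells and the highest of the LacZi arrays, and its part in the dip was not tested.

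From 8 to 50 h, 7 genes stood at least 2-fold higher at 50 h in p53i cells (IFI27, BST2, XAF1, MX1, IFI44L, IFI35 and SAMD9), and 5.19% of all genes did. In LacZi cells 4 did (IFI27, BST2, MX1 and MX2), and 3.63% of all genes. None of the 10 was at least 2-fold lower at 50 h (4.03% of all genes in p53i cells and 3.12% in LacZi cells). The median step from 8 to 50 h was 1.53 in p53i cells and 0.51 in LacZi cells, on the log2(signal + 16) scale. With no offset these medians were 1.72 and 1.76, so the difference between them depends on the offset. The step was largest for IFI27 in p53i cells, 2.59, and for BST2 in LacZi cells, 1.98. IFI44L stepped by 2.32 in p53i cells and by -0.74 in LacZi cells. For MX2 the step was -0.18 in p53i cells and 1.23 in LacZi cells. At 50 h all 10 genes of p53i cells stood above their untreated mean. In LacZi cells BST2, IFI44, IFI44L and IFI35 stood below theirs and IFI27 was level with it, at -0.02.

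**Figure D4:**
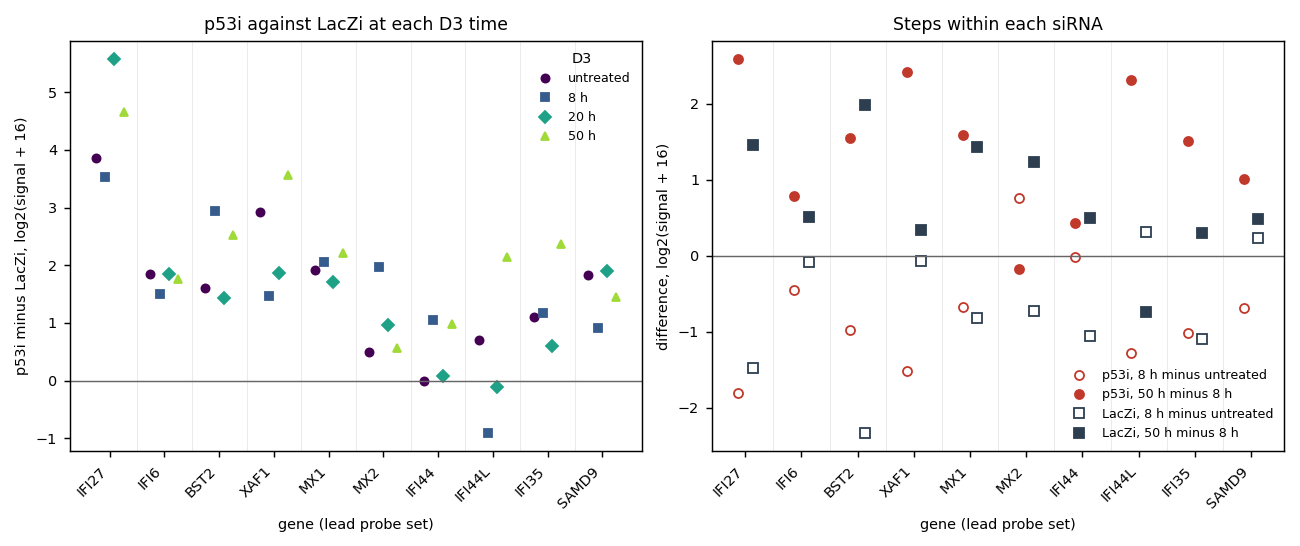
Left, p53i minus LacZi in log2(signal + 16) for each gene without D3 (means of 2 arrays) and at 8, 20 and 50 h (1 array each). Right, 8 h minus untreated (open) and 50 h minus 8 h (filled) within p53i (red circles) and LacZi cells (dark squares); the step from 8 to 50 h has a median of 1.53 in p53i cells and 0.51 in LacZi cells, which become 1.72 and 1.76 with no offset.

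At 20 h alone, a time at which the rule compared only the siRNAs, the effect of D3 was tested over both siRNAs against untreated cells. By limma 0 of the 10 passed and 0 had an unadjusted p under 0.05 (10.7% of all genes did), and 0.0910% of all genes passed as higher and 0.0253% as lower. The differences ran from -0.75 for IFI27 to 0.59 for MX1, with standard errors of 0.21 to 0.50. They average over the siRNAs. Against its untreated mean, IFI27 at 20 h stood at 0.11 in p53i cells and -1.605 in LacZi cells, where its signal was 6.66. MX1 stood at 0.485 in p53i cells and 0.69 in LacZi cells. No untreated array is labelled with a time, so the hormone cannot be told apart from time in culture.

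The other D3 fits take in the 8 h and 50 h arrays, whose values were used in choosing the genes, and are given as a description. Over the 3 times, none of the 10 genes passed as higher (0.576% of all genes did) or as lower (0.425%), by limma with Benjamini-Hochberg adjustment. The differences ran from -0.67 to 0.33, with a median of -0.05 beside 0.02 over all genes, and 3 of the 10 were above 0. IFI27 and BST2 had an unadjusted p under 0.05, as 14.3% of all genes did. For IFI27 the difference was -0.67 ± 0.29 (SE; limma adjusted p = 0.389), and for BST2 -0.58 ± 0.24 (limma adjusted p = 0.349). Without the LacZi 8 h array the difference of BST2 was -0.39. Against the untreated mean, IFI27 at 50 h stood at 0.78 in p53i cells and -0.02 in LacZi cells, and BST2 at 0.58 and -0.34. The standard errors of the 10 genes were 0.16 to 0.37.

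Within p53i cells, 0 passed by limma, with differences of -0.35 to 0.67 and 0 at an unadjusted p under 0.05, against 11.8% of all genes (0.0405% of all genes passed as higher, 0 as lower). Within LacZi cells, 0 passed by limma, with differences of -1.03 for IFI27 to 0.28 for XAF1, and IFI27 and BST2 had an unadjusted p under 0.05, against 9.54% of all genes (0.106% of all genes passed as higher, 0.00506% as lower). The second probe set of SAMD9 also had an unadjusted p under 0.05 there, at -1.01 ± 0.34. Against the untreated mean of LacZi cells, BST2 stood at -2.33 at 8 h, -0.13 at 20 h and -0.34 at 50 h. Its value in LacZi cells thus rests mostly on the 8 h array. The difference between the siRNAs in the response to D3 passed for 0 of the 10 and for 0 of all genes by limma, and 0 of the 10 against 5.68% of all genes had an unadjusted p under 0.05.

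**Figure D5:**
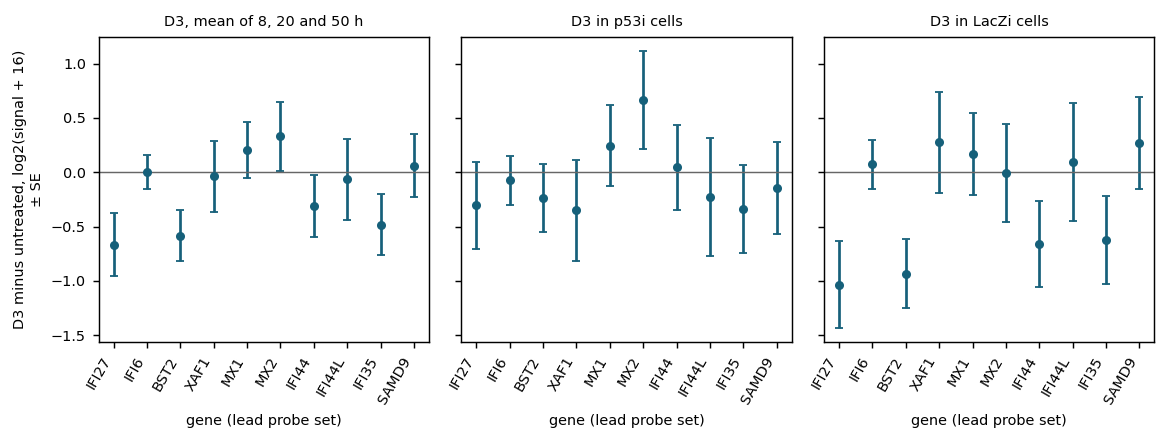
D3 minus untreated in log2(signal + 16) with its standard error for each gene, from limma fits over all 10 arrays; from left to right over both siRNAs, in p53i cells and in LacZi cells. None of the 10 genes passed the threshold in any of the 3 panels, and IFI27 and BST2 lie lowest in LacZi cells, at -1.03 and -0.93. The BST2 value there rests mostly on the 8 h array.

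Other genes of the pathway were counted from lists chosen with earlier results of these data known. Of 18 measured interferon genes, 0 passed between the siRNAs and 17 had a mean signal under the median of a typical array. IFNB1, a type I interferon, averaged 8.45 ± 6.15 in p53i cells and 2.28 ± 0.652 in LacZi cells (SD, n = 5 each), a difference of 0.39 (limma adjusted p = 0.352). IFNL1, a type III interferon, averaged 34.1 ± 10.3 and 41.3 ± 16.9 (SD, n = 5 each; limma adjusted p = 0.873). Signals this close to background cannot show whether an interferon gene was expressed.

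Among 13 measured receptors, kinases and transcription factors, 2 passed as higher and 1 as lower in p53i cells, beside 0.789% and 0.693% of all genes. IRF9, a DNA-binding subunit of the complex that binds the ISRE, had 836 ± 210 in p53i cells and 265 ± 70.3 in LacZi cells (SD, n = 5 each), a difference of 1.60. IRF7, which drives later interferon genes, had 611.5 ± 248.9 and 238.6 ± 39.6 (SD, n = 5 each), a difference of 1.20. IFNGR1, a chain of the interferon gamma receptor, had a difference of -0.43. The type I receptor chains IFNAR1 and IFNAR2 had differences of -0.59 and 0.17 and did not pass (limma adjusted p = 0.0803 and 0.571). Of 44 other measured interferon-stimulated genes, 15 passed as higher and 0 as lower in p53i cells, beside the same shares of all genes. The median difference of the 44 was 0.66, and 13 of them had a mean signal under the median of a typical array. Of the 15, those with the largest differences were IFIT1 (3.56), ISG15 (2.71), OAS1 (2.01) and OAS3 (1.75). The LacZi mean signal of IFIT1 was 9.475, close to background. Without the intensity trend 0 of all probe sets passed, so none of these calls held. With D3 over the 3 times, 0 of these 44, 0 of the 13 and 0 of the 18 passed by limma.

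The 8 genes outside the list whose lead probe set followed the mean log2 profile of the 10 genes most closely over the 10 arrays were ISG15 (Pearson r = 0.988), HERC6 (0.980), OAS1 (0.976), LOC100996740 (0.957), IRF9 (0.955), IFITM1 (0.954), IFIT5 (0.950) and IFITM3 (0.946). They were drawn from 2001 genes with a mean signal in the upper 50% and a range of at least 1 on the log2 scale. All of these coefficients come from the same 10 arrays, which share the split by siRNA, and are given as a description.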

How the data were processed

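Transcripts were measured on 10 one-colour Affymetrix arrays. The authors deposited 1 intensity per probe set and array, not on a log scale; these are MAS5 signals, per the submitters' processing notes (version not given in the sources used here). Without the lowest and highest 2% each array's mean was 200, so the deposited values had been scaled by array, and no further scaling was applied. Groups came from each sample's labels; the p53i 8 h title spells the siRNA differently so its source name gave the group. The series text puts D3 48 h and the sample text 24 h after transfection. Untreated arrays are labelled biological replicates; for the others the labels are silent on cultures, and a p-value then reflects the spread among these arrays, which may be technical. The number of arrays limits the precision.

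Of 54675 probe sets, 41091 carried 1 symbol in the platform annotation, 1801 several and 11721 none, with 62 control probe sets left out. Signals were converted to log2(signal + 16) and all 41091 were fitted, without a filter on low signal, with limma 3.58.1 in R 4.3.3 (lmFit, eBayes with intensity trend, two-sided). The models were additive in siRNA and D3 time (5 residual degrees of freedom) or had a siRNA-by-D3 term (4). Adjustment was over all probe sets, and background shares are over the lead probe set of each gene. Called means an adjusted p under 0.05 or, where 1 array stands in a group, a 2-fold difference. The 10 genes, the lists, the naming rule and the motifs were chosen with earlier results of these data known. Named besides the 10 genes are up to 4 genes of each list with the largest called difference, IFNB1, IFNL1, IFNAR1, IFNAR2 and IRF9 always, and the 8 genes most alike in profile. Scripts were tested on simulated data. Alternatives are listed with their effects under the dependence on processing.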

Additional observations from a re-analysis of the deposited data

How the results depend on the processing

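For each of D3 over the 3 times, D3 at 20 h, D3 within either siRNA and the siRNA-by-D3 term, 0 of the 10 genes passed in all 22 alternative fits (limma). Of the p53i against LacZi count, 6 with all arrays, 18 of 22 alternatives gave 4 to 7, not always of the same genes (IFI35 passed in 6, and XAF1 did not with its probe sets averaged); it was 3 with the ACTB ratio as a covariate and 3 without the pair of arrays highest in that ratio, 1 with 8 group means (IFI27), and 0 without the intensity trend, for causes not tested. With 1 array left out in turn it was 4 to 6 and its median 1.58 to 1.77 (the calls lost are named in the report). That median was 2.15 with no offset, 1.06 with an offset of 64, 1.15 with the mean of a gene's probe sets and 1.42 with the ACTB covariate. The offset also moved the matched medians, by construction for weak signals: with none they were 3.16 at 8 h and 2.68 at 50 h and the steps from 8 to 50 h were 1.72 in p53i and 1.76 in LacZi cells; with 64 they were 1.09 untreated, 0.78, 1.02 and 1.44 at 8, 20 and 50 h and the p53i step was 1.02. Averaging probe sets gave 0.97 untreated and 1.20 at 20 h. In the upper 50% by signal the 8 h median was 1.77 and the LacZi step 0.97, but of the 6 genes that reach it IFI27, MX1, IFI35 and SAMD9 do so through the p53i arrays, so these values carry no weight; none reaches the upper 25%, so that alternative gave no value. The untreated median was 1.33 to 1.90 with 1 array left out and 1.37 without the pair highest in ACTB ratio. The replicate number was shared by the untreated arrays only; as a replicate block it gave 7 genes and 880 probe sets called between the siRNAs, against 398 without it. The deviations of replicate 1 in the untreated arrays had r = 0.11 over genes, and 2 pairs do not settle whether the numbers pair the samples. None of the values recomputed changed sign. Signals under the array median are close to background and limit the size of differences.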

Other observations

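The coding genes that flank the 10 genes on the chromosome were looked at after the values of the 10 were seen. Of 16 flanking genes outside the list, 15 were measured, and their differences between p53i and LacZi cells ran from -0.37 to 1.32 on the log2(signal + 16) scale, with a median of -0.02. By limma, 0 of the 15 passed as higher or lower. TMPRSS2, a membrane serine protease next to MX1, had the largest difference, with signals of 113 ± 64.04 in p53i cells and 36.8 ± 39.1 in LacZi cells (SD, n = 5 each; limma adjusted p = 0.162). The relatives of the listed genes among them were IFI27L1 at 0.24 and IFI27L2 at -0.30 beside IFI27, and SAMD9L at -0.22 beside SAMD9, which stood at 1.58. SAMD9L averaged 30.1 ± 11.0 in p53i cells and 37.1 ± 9.16 in LacZi cells (SD, n = 5 each), under the median of a typical array, so a difference in it may not be detectable here.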
